A study of Mus musculus with 8 samples.

Results

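The star strands of mouse microRNAs (miRNAs) were followed in cultured mouse oligodendrocytes, the myelin-forming cells of the brain. Members were all mouse miRNAs on the array whose name ends in a star, without regard to their signal, which gave 115 of 611 mouse miRNAs, read by 397 probes and 2300 spots per array. Each was set beside the strand of the same name without the star, which the array held for 103 of them. All cells were of strain C57BL/6J and genotype CNP-Cre, so that a promoter of the oligodendrocyte lineage drives Cre in every group; the labels name no allele for Cre to act on. The groups were immature cells of day 0 (n = 3), immature cells of day 1 (n = 2) and mature cells of day 6 (n = 3), all in a defined medium with B27, horse serum and thyroid hormones, without treatment. The series text calls the samples independent and counts the first days otherwise; the day numbers here are those of the sample labels. Which animals or litters they came from is not stated, and the p-values set differences between days against the spread among these samples only.

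A miRNA precursor is a hairpin that is cut to a short duplex, and as a rule 1 strand of the duplex is loaded into an Argonaute protein while the other, the passenger strand, is mostly degraded. When this array was designed, the strand found less often was marked with a star; names ending in 5p and 3p later replaced the star because some star strands are loaded and act on targets of their own. A miRNA finds its targets mainly through the seed, bases 2 to 8 from its 5′ end, so the strands of a duplex have different seeds and different targets.

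Few star strands gave signal. Only 15 of 115 (13.0%) were detected on at least 3 of 8 arrays, the minimum set for testing, against 60 of 103 (58.3%) of the strands of the same name without a star and 31.6% of the 393 other mouse miRNAs. None of the 15 passed the test for a difference between days, and of all tested mouse miRNAs only 0 to 4.02% did, depending on the comparison. The 15 were let-7a*, miR-9*, miR-17*, miR-20a*, miR-22*, miR-24-1*, miR-24-2*, miR-30a*, miR-30e*, miR-135a*, miR-138*, miR-140*, miR-181a-1*, miR-199b* and miR-674*. miR-9*, a strand known from neural progenitors and neurons, was the only star strand detected on all 8 arrays.

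The array's star names were matched by hand to the arm names of RefSeq (mouse build GRCm38.p6), which held a mature sequence for 14 of the 15. The star strand lay in the 3′ part of the hairpin for 11 of these and in the 5′ part for 3, miR-22*, miR-24-1* and miR-24-2*. The strands below, printed 5′ to 3′ with the seed in capitals, are miR-9*, the star strand detected on every array, those whose mature arrays lay apart from the immature ones, and those that share a seed or a precursor transcript. The strand without the star is printed too, except for the miR-30 family, of which the star strands alone are shown.
miR-9*: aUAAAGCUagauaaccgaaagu
miR-9: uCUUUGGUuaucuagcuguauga
miR-22*: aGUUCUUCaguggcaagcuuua
miR-22: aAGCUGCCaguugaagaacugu
miR-24-1*: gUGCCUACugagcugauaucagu
miR-24-2*: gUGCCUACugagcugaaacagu
miR-24: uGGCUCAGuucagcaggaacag
miR-674*: cACAGCUCccaucucagaacaa
miR-674: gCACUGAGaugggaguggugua
miR-30a*: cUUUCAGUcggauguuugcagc
miR-30e*: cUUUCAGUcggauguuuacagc
miR-17*: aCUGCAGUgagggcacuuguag
miR-20a*: aCUGCAUUacgagcacuuaaag
miR-17: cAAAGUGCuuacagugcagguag
miR-20a: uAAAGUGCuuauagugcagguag

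Shared seeds were few among the star strands. miR-30a* and miR-30e* share the seed UUUCAGU and differ by 1 substitution, G18A, counted from 1 at the 5′ end of miR-30a*. miR-24-1* and miR-24-2* share the seed UGCCUAC and are identical over their first 16 bases. In either pair, signal shared between the probes cannot be told apart. miR-17 and miR-20a have 1 seed in common, AAAGUGC, whereas their star strands do not, and miR-17* and miR-20a* differ at 6 positions, the first being G7U counted from the 5′ end of miR-17*. Of the 14 star strands with a sequence, 2 begin with U, against 7 of the 13 different partner sequences, the base known to be favoured by Argonaute at the 5′ end.

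The hairpins of miR-9*, miR-22* and miR-674* show where the star strand sits; here the whole star strand is in capitals. miR-9* is encoded at 3 loci, on chromosomes 3, 7 and 13, and the first of them, Mir9-1, is shown.
Mir9-1: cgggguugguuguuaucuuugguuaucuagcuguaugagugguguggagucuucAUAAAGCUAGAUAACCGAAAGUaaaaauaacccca
Mir22: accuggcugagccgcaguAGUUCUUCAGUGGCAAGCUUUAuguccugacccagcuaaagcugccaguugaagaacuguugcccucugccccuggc
Mir674: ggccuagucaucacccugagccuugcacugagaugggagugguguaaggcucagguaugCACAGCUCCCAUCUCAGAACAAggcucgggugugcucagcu

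In GRCm38.p6, Mir9-1 lies at chr3:88215598-88215686 on the plus strand, within the span of the long non-coding RNA gene Gm3764. Mir22 lies at chr11:75463716-75463810 on the plus strand, within Mir22hg, its non-coding host gene. Mir674 lies at chr2:117185127-117185226 on the plus strand, and no other annotated gene spans it. Mir17 and Mir20a, at chr14:115043671-115043754 and chr14:115044157-115044263, lie on the plus strand among the miRNAs of the miR-17 to miR-92a cluster, which is known to favour proliferation and is named in the title of the series. Mir24-2, at chr8:84208815-84208921 on the plus strand, neighbours Mir23a and Mir27a, while Mir24-1, at chr13:63301208-63301275, lies within Aopep beside Mir23b and Mir27b. Mir30a, at chr1:23272269-23272339 on the plus strand, is spanned by no other annotated gene. Mir30e, at chr4:120772606-120772697 on the minus strand, lies within Nfyc, a protein-coding gene of a transcription factor subunit.

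Day 0 replicate 1 stood apart before any comparison. The spread of its negative control spots (scaled median absolute deviation) was 30.2 intensity units, against 2.54 to 3.88 on the other arrays, and the lowest value counted as detected on it was 7.65 on the log2 scale, against 3.56 to 4.61. Of the star strands, 3 were detected on it, miR-9*, let-7d* and miR-99b*, so every other star value of that array lies below its own detection limit. Results are therefore given with and without it. All 8 arrays shared 1 slide and 1 scan date, and no star spot was saturated. Of the miRNAs that mark the oligodendrocyte lineage, miR-338-3p was detected on 7 arrays, miR-219 and miR-138 on 6 and miR-338-5p on 3. Their summed level ran from 187 to 3468 on immature arrays and from 879 to 2610 on day 6 arrays (linear scaled intensity). The mature and immature arrays thus overlapped in it. Markers of erythroid cells, endothelium and muscle were detected on none, and of the epithelial and choroid markers 1 of 6 was. All 5 neuron markers, all 4 astrocyte markers and 5 of 6 leukocyte and microglia markers were detected. The neuron markers summed to 208 to 1246 on day 6 arrays and 290.1 to 525 on immature arrays (linear scaled intensity), and their part in the values of miR-9* and miR-138* was not tested.

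Detection differed between arrays of the same day. Star strands were detected to the number of 3, 14 and 18 (day 0), 15 and 8 (day 1) and 15, 16 and 13 (day 6). The strands of the same name without a star numbered 25, 59 and 65 (day 0), 59 and 45 (day 1) and 54, 54 and 50 (day 6). The star strands had the smallest detected share of the 3 classes on each array, and day 0 replicate 1 and day 1 replicate 2 were the lowest arrays for all 3. Of single spots, 1.74 to 11.3% were well above background for star strands and 21.02 to 56.9% for the strands without a star.

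**Figure D1:**
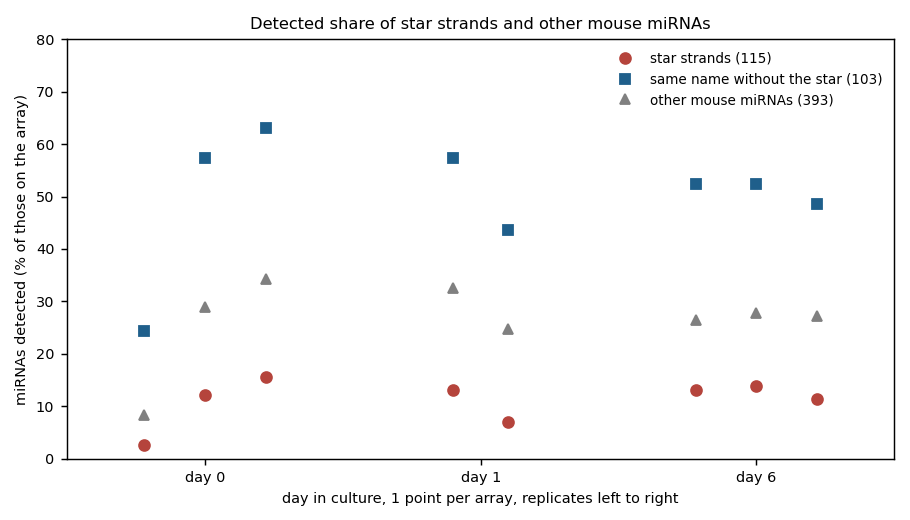
Percentage of miRNAs detected on each array (vertical axis) by day in culture (horizontal axis, 1 point per array), for 115 star strands, 103 strands of the same name without the star and 393 other mouse miRNAs. Star strands lie lowest on every array, at 3 to 18 strands detected, against 25 to 65 strands without a star.

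A detected partner seldom came with a detected star strand. In the 103 pairs of one name, both strands were tested in 10, the star strand alone in 1, the partner alone in 50 and neither in 42. The partner was detected on more arrays in 63 pairs and the star strand in 2, miR-299* and miR-674*. Their partners, miR-299 and miR-674, were detected on no array. Of the 25 pairs whose strand without the star was detected on all 8 arrays, the star strand was tested in 5 (let-7a*, miR-9*, miR-20a*, miR-22* and miR-135a*) and detected on 1 array in 4 (let-7d*, miR-21*, miR-29a* and miR-106b*). It was detected on no array in 16, namely the star strands of let-7b, let-7f, let-7g and let-7i, miR-15a, miR-15b and miR-16, miR-27a and miR-27b, miR-29b and miR-29c, and miR-7a, miR-20b, miR-26b, miR-30b and miR-92a. Probes differ in brightness, so a difference in detection between strands is not a ratio of their amounts, and not detected does not mean absent.

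Another 9 star strands were detected on 1 or 2 arrays and were not tested. They were let-7d*, miR-21*, miR-29a*, miR-31*, miR-99b*, miR-106b* and miR-411* on 1 array each, and miR-299* and miR-877* on 2. miR-31* was detected on day 6 replicate 2 only, at 5.03 (log2 scaled intensity, as for all levels given here), and miR-877* on day 6 replicates 2 and 3, at 4.31 and 4.70. let-7d* and miR-99b* were detected only on the noisy day 0 replicate 1, at 8.09 and 7.65. The remaining 91 star strands, 79.1% of the members, were detected on no array.

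By precursor family, detected star strands were scattered. The miR-17 to miR-92a family and its related clusters had 8 star strands on the array, of which 3 were detected and 2 tested, miR-17* and miR-20a*. The let-7 family had 7, with 2 detected and let-7a* tested, and the miR-30 family 5, with miR-30a* and miR-30e* detected and tested. The imprinted Dlk1-Dio3 clusters, a large group of brain miRNAs, had 13 star strands, of which miR-299* and miR-411* were detected on few arrays and none was tested. The miR-15 and miR-16 family had 4 and the Sfmbt2 cluster 4, none detected. The miR-23, miR-24 and miR-27 clusters had 4, with both miR-24 star strands tested, and the neural precursors had 6, with miR-9* and miR-138* tested. The miR-181 family had 2, of which miR-181a-1* was tested. The vascular and mural precursors had 5, of which miR-199b* was tested. The leukocyte precursors had 3, of which miR-21* was detected, the miR-99, miR-100 and miR-125 family 2, of which miR-99b* was, and the miR-29 family 3, of which miR-29a* was. The families of miR-26 with miR-101, with 2, and of miR-34 with miR-449, with 1, had none detected. The oligodendrocyte differentiation precursors had 0 star strands on the array. In these lists, made with earlier results of these data known, none of the tested star strands was called in any comparison.

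In mature against immature cells, 0 of 15 star strands were called by limma at an adjusted p under 0.05, while 4 of all tested mouse miRNAs were, or 2.01%. At an unadjusted p under 0.05 there were 3 star strands, 2 higher and 1 lower in mature cells, of 24 miRNAs in all. The median log2 fold of mature over immature cells was 0.088 over the 15 star strands and 0.042 over all tested miRNAs, with 9 star strands above 0 and 6 below. Without day 0 replicate 1 there were again 0 star strands called, and the median was 0.18. Scaling the arrays to bright control probes (control scaling) put the median of all tested miRNAs at 0.51, and no scaling put it at -0.28, so values under those settings carry that shift. The 3 strands were miR-22*, miR-24-2* and miR-674*, and they were also those whose mature arrays did not overlap the immature ones.

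miR-22*, the partner of a widely expressed miRNA from a non-coding host gene, was at the floor of 4.20 on all 3 day 0 arrays and both day 1 arrays, and at 4.70, 4.84 and 4.61 on day 6. With the floor set, all day 6 values thus lay above all earlier ones. The detection limit of day 0 replicate 1, 7.65, was above all of them. The spots were well above background on day 6 replicates 1 and 2 and on day 1 replicate 1, where the signal lay under the floor, but not on day 6 replicate 3 or any day 0 array. The log2 fold of mature over immature cells was 0.51 ± 0.16 (SE; adjusted p = 0.256), and its size depends on the floor. The immature values, all at the floor, add no spread, so the SE and the p-value depend on the floor too. Against day 0 no fold is given, since the value there is only a bound. Without day 0 replicate 1, which also moves the floor, the log2 fold of mature over immature cells was 0.64 (adjusted p = 0.0691). With control scaling miR-22* passed the test at a log2 fold of 0.94 (adjusted p = 0.0418), and with the floor doubled its fold was 0 (adjusted p = 1). Of the 2 probes for miR-22*, 1 was detected on no array.

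miR-24-2*, from the cluster of Mir23a, Mir27a and Mir24-2, read 4.20, 5.32 and 4.92 (day 0), 5.25 and 4.58 (day 1) and 5.58, 5.98 and 5.43 (day 6). The 3 day 6 arrays were above all others, although the gap to day 0 replicate 2 was small beside the spread within day 0. It was not detected on day 0 replicate 1 or day 1 replicate 2. The log2 fold was 0.80 ± 0.31 (SE; adjusted p = 0.384), 0.75 without day 0 replicate 1 and 1.29 with control scaling. The other probe for it gave 0.69. The near-identical miR-24-1*, from the cluster of Mir23b, ranged from 4.20 to 4.93 and was detected on 4 arrays. It was at the floor on 3 arrays, and 1 of its 2 probes was detected on no array. Its log2 fold was 0.17 ± 0.23 (SE; adjusted p = 0.842). For miR-24 itself, the strand both precursors share, it was 0.17 ± 0.27 (SE; adjusted p = 0.862).

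miR-674* was the strand lower in mature cells, reading 5.86, 5.45 and 5.38 (day 0), 5.14 and 5.51 (day 1) and 4.98, 4.95 and 4.74 (day 6). The 3 day 6 arrays were below all 5 immature arrays, and it was detected on all arrays but day 0 replicate 1. The log2 fold was -0.56 ± 0.20 (SE; adjusted p = 0.384), but -0.043 with control scaling and -0.077 with the normexp background correction. The highest value came from day 0 replicate 1, below that array's detection limit, and without it the log2 fold was -0.38 (adjusted p = 0.277). The second detected probe gave -0.49 over all arrays. As miR-674 was detected on no array, the strands of this precursor could not be compared.

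Groups that did not overlap were also found among miRNAs at large. Of all tested miRNAs, 3.52% had every mature array above every immature array and 4.02% every mature array below, against 2 and 1 of 15 star strands. Without day 0 replicate 1, 2 star strands were separate and higher and 2 separate and lower, with 6.03% and 9.55% of all tested miRNAs. The strand gained was miR-20a*.

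miR-17* and miR-20a*, star strands of the miR-17 to miR-92a cluster, had lower means on day 6 than on day 1. miR-17* read 4.20, 6.46 and 6.29 (day 0), 6.46 and 5.85 (day 1) and 5.87, 5.36 and 5.86 (day 6). miR-20a* read 4.20, 5.14 and 5.52 (day 0), 5.50 and 5.05 (day 1) and 4.77, 4.23 and 4.68 (day 6). The lowest value of each was the undetected day 0 replicate 1, which sat at the floor; apart from it, miR-20a* was lower on all day 6 arrays than on the 4 immature arrays, and miR-17* overlapped only narrowly, at 5.87 on day 6 and 5.85 on day 1. The log2 fold of mature over immature cells was -0.55 ± 0.33 (SE; adjusted p = 0.553) for miR-20a* and -0.21 ± 0.53 (SE; adjusted p = 0.889) for miR-17*. Without day 0 replicate 1 these were -0.64 (adjusted p = 0.204) and -0.47 (adjusted p = 0.249). Neither passed the test, and with control scaling the log2 folds were -0.060 for miR-20a* and 0.29 for miR-17*.

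miR-9* was bright and changed little beside its spread. It read 10.04, 10.8 and 10.8 (day 0), 10.5 and 10.1 (day 1) and 9.88, 9.97 and 10.8 (day 6). Mature and immature arrays overlapped, since day 6 replicate 3 matched the highest day 0 arrays. The log2 fold was -0.21 ± 0.30 (SE; adjusted p = 0.842), and both of its probes, detected on all arrays, gave a negative value. With control scaling, the log2 fold of miR-9* was 0.30.

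The star strands of the miR-30 family, whose main strands are abundant in many differentiated cells, had higher means on day 6. Signal shared between the probes for miR-30a* and miR-30e* cannot be told apart, so they need not be separate readings. miR-30a* read 4.20, 4.43 and 4.89 (day 0), 4.54 and 4.66 (day 1) and 4.79, 4.76 and 5.31 (day 6). miR-30e* read 4.77, 5.55 and 5.58 (day 0), 5.46 and 5.48 (day 1) and 5.72, 5.21 and 5.97 (day 6). In both, mature and immature arrays overlapped and the lowest array was day 0 replicate 1, not detected. The log2 folds were 0.40 ± 0.24 (SE; adjusted p = 0.536) and 0.25 ± 0.28 (SE; adjusted p = 0.81), and that of miR-30e* was -0.092 without scaling of the arrays. The second probe for miR-30a*, detected on 2 arrays, gave 0.12.

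Of the remaining strands, 3 rested on single arrays. let-7a*, partner of a miRNA known to increase as cells differentiate, read 7.22, 4.70 and 4.52 (day 0), 4.97 and 4.63 (day 1) and 5.18, 4.90 and 5.56 (day 6). The value of 7.22 was not detected, as that array's limit was 7.65. With it the log2 fold was 0.07 ± 0.61 (SE; adjusted p = 0.957), and without that array 0.61 (adjusted p = 0.138). Of the 4 probes for let-7a*, 3 were detected on no array. miR-199b*, from a precursor of mesenchymal and mural cells, read 6.37, 5.03 and 4.43 (day 0), 4.89 and 4.20 (day 1) and 5.59, 6.40 and 4.20 (day 6). Its day 6 arrays spanned the whole range of the strand, with replicate 3 at the floor, and the log2 fold was 0.48 ± 0.60 (SE; adjusted p = 0.842). It was 0.89 without day 0 replicate 1. The second probe for miR-199b*, detected on 2 arrays, gave 0.083 over all arrays. miR-181a-1* read 6.39, 6.06 and 5.82 (day 0), 6.17 and 5.49 (day 1) and 6.18, 5.09 and 6.30 (day 6). Its log2 fold of -0.11 ± 0.34 (SE; adjusted p = 0.892) turned to 0.07 without day 0 replicate 1.

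The last 3 strands overlapped throughout. miR-135a* read 5.12, 6.20 and 6.67 (day 0), 5.32 and 5.66 (day 1) and 5.81, 4.70 and 5.81 (day 6), with a log2 fold of -0.30 ± 0.42 (SE; adjusted p = 0.842). Of its 4 probes, all detected on at least 5 arrays, 2 gave a negative and 2 a positive value, from -0.30 to 0.36. miR-140*, whose precursor lies within Wwp2 and is best known from cartilage, read 6.35, 6.70 and 6.18 (day 0), 6.42 and 6.06 (day 1) and 6.87, 6.15 and 6.22 (day 6). Its log2 fold was 0.09 ± 0.25 (SE; adjusted p = 0.892), and its 8 arrays lay within 0.81 of each other. miR-138*, whose partner is known to favour oligodendrocyte differentiation, was detected on 5 arrays, ranged from 4.20 to 5.10 and had a log2 fold of 0.15 ± 0.28 (SE; adjusted p = 0.871). It was at the floor on 4 arrays, and 1 of its 2 probes was detected on no array.

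**Figure D2:**
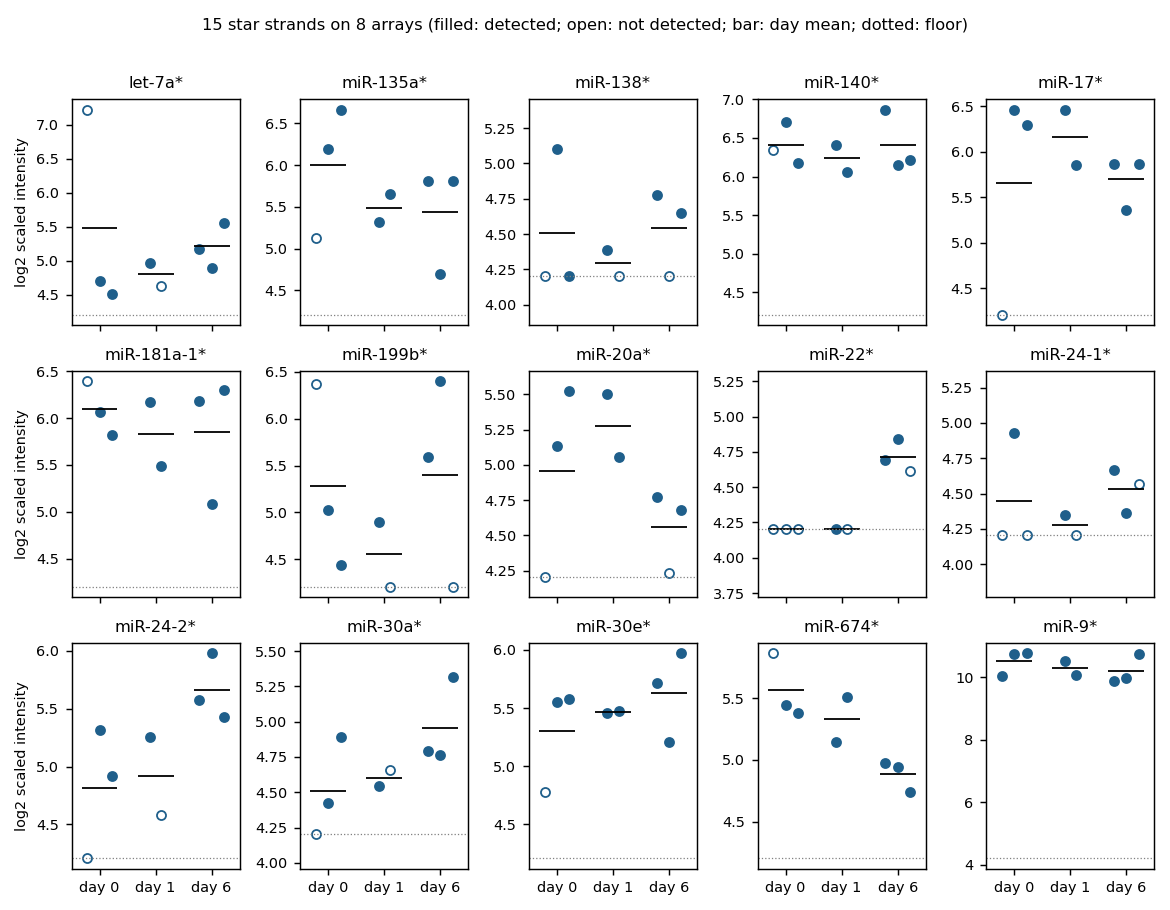
Log2 scaled intensity (vertical axis, a separate scale in each panel) of the 15 tested star strands on 8 arrays by day (horizontal axis); filled points were detected, open points not, bars are day means and the dotted line is the floor at 4.20. Day 6 points lie above all others for miR-22* and miR-24-2* and below all others for miR-674*, and the first day 0 array is open in every panel but that of miR-9*.

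Between single days no star strand was called either. Of day 6 against day 0, 0 of 15 star strands were called by limma and 3 had an unadjusted p under 0.05, while 8 of all tested miRNAs were called, or 4.02%. The medians of the log2 fold were 0.041 over star strands and 0.034 over all miRNAs. miR-24-2* and miR-22* were separate and higher on day 6 and miR-674* separate and lower, against 10.6% and 6.03% of all miRNAs. For miR-22*, detected on no day 0 array, this order rests on the floor. The mean of its day 0 bounds was 5.05, above its day 6 mean of 4.72. The largest log2 folds were 0.85 ± 0.35 (SE; adjusted p = 0.351) for miR-24-2*, -0.68 ± 0.23 (SE; adjusted p = 0.219) for miR-674* and -0.56 ± 0.47 (SE; adjusted p = 0.609) for miR-135a*. Without day 0 replicate 1 these became 0.68, -0.39 and -0.86, with adjusted p-values of 0.201, 0.309 and 0.249.

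Of day 6 against day 1, 0 of 15 star strands and 0 of all tested miRNAs were called by limma, and 1 star strand, miR-22*, had an unadjusted p under 0.05, of 16 miRNAs in all. The medians were 0.18 over star strands and 0.036 over all miRNAs. The largest log2 folds were 0.85 ± 0.75 (SE; adjusted p = 0.891) for miR-199b*, 0.74 ± 0.39 (SE; adjusted p = 0.688) for miR-24-2* and -0.72 ± 0.41 (SE; adjusted p = 0.688) for miR-20a*. Separate groups were found for 4 star strands that were higher on day 6 (miR-22*, miR-24-1*, miR-24-2* and miR-30a*) and 2 that were lower (miR-20a* and miR-674*), against 10.1% and 17.1% of all miRNAs. For miR-22*, at the floor on both day 1 arrays, the order rests on the floor. For miR-24-1*, day 1 replicate 2 was at the floor. Its nearest values were 4.37 on day 6 replicate 2 and 4.35 on day 1 replicate 1.

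Of day 1 against day 0, 0 of 15 star strands were called by limma and 0 had an unadjusted p under 0.05, while 3 of all tested miRNAs were called, or 1.51%. The medians were -0.17 over star strands and -0.062 over all miRNAs, and 0 star strands had separate groups, against 10.1% of all miRNAs higher and 3.02% lower. The largest log2 folds were -0.73 ± 0.75 (SE; adjusted p = 0.935) for miR-199b*, -0.68 ± 0.76 (SE; adjusted p = 0.935) for let-7a* and 0.51 ± 0.66 (SE; adjusted p = 0.935) for miR-17*. In each of these 3, the undetected day 0 replicate 1 was the highest or the lowest of all immature arrays. Without it the log2 folds were -0.18 for miR-199b*, and 0.24 for let-7a* and -0.16 for miR-17*, both of which turned in direction. The comparisons with day 0 share its arrays, so they do not support each other.

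**Figure D3:**
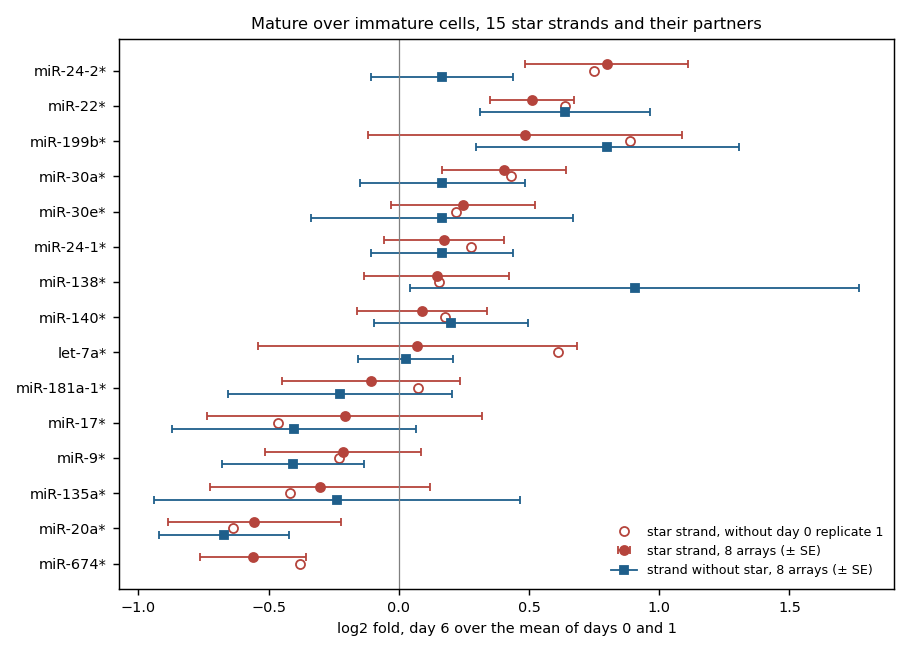
Log2 fold of mature (day 6) over immature cells (mean of days 0 and 1; horizontal axis) for 15 star strands (filled circles, ± SE), the same without day 0 replicate 1 (open circles) and their strands without a star (squares, ± SE), sorted by the star strand. Values of star strands run from -0.56 for miR-674* to 0.80 for miR-24-2*, and that of let-7a* is 0.07 with and 0.61 without the array.

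The strands of a precursor are cut from the same transcript in equal number, so each star strand was then set against its partner on the same array. In RefSeq, miR-135a and miR-138 are each encoded at 2 loci, and the star strands matched to them at 1. In those pairs the partner can thus also come from another transcript. In 10 same-name pairs with both strands tested, and 8 pairs named 5p and 3p fitted with them, 0 of 18 (0%) differed in their change by limma between mature and immature cells. The same 0 was found for each pair of days, 0 of 18 (0%) had an unadjusted p under 0.05 in any of the 4 comparisons, and the smallest adjusted p was 0.68. The log2 folds of both strands in mature over immature cells had the same sign in 10 of 10 same-name pairs, and in 5, 8 and 6 of 10 for day 6 against day 0, day 6 against day 1 and day 1 against day 0. Both strands share the array, its scaling and its RNA, so these counts are a description.

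In 4 of the 10 pairs the difference between the strands varied less over the 8 arrays than either strand did, namely those of miR-9*, miR-17*, miR-20a* and miR-140*. For miR-17* the SD over the arrays was 0.16 for the difference, against 0.74 for miR-17* and 0.69 for miR-17. Without day 0 replicate 1 these SDs were 0.14, 0.40 and 0.44. miR-17 read 4.78, 6.69 and 6.70 (day 0), 6.82 and 6.48 (day 1) and 6.12, 5.60 and 6.14 (day 6). Both strands were thus low on day 0 replicate 1, where neither was detected, and on day 6 replicate 2. The probes for miR-17 are also listed for miR-106a. The log2 folds of mature over immature cells were -0.21 for miR-17* and -0.40 for miR-17, both below 0, and that of miR-17* was less negative by 0.19 ± 0.16 (SE of the log2 difference), with an adjusted p of 0.929.

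In the pair from the same cluster the strands also moved together from array to array. miR-20a read 9.25, 9.93 and 9.95 (day 0), 10.1 and 9.64 (day 1) and 9.12, 8.85 and 9.35 (day 6), and its log2 fold was -0.67 ± 0.25 (SE; adjusted p = 0.384). Its difference from miR-20a* had an SD of 0.22, against 0.51 for miR-20a* and 0.44 for miR-20a. The log2 fold of miR-20a* was less negative than that of miR-20a by 0.12 ± 0.19 (SE of the log2 difference; adjusted p = 0.929).

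miR-9 read 11.2, 11.6 and 11.8 (day 0), 11.3 and 11.0 (day 1) and 10.6, 10.7 and 11.5 (day 6), high on day 6 replicate 3 as miR-9* was. The SD of the difference was 0.16, against 0.39 for miR-9* and 0.42 for miR-9, and 0.10 without day 0 replicate 1. In neural cells miR-9 is known to act on the repressor REST and miR-9* on its partner CoREST. The log2 folds were -0.21 for miR-9* and -0.41 for miR-9, less negative for miR-9* by 0.19 ± 0.15 (SE), with an adjusted p of 0.929.

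Without day 0 replicate 1, the difference varied less than either strand in 5 of the 10 pairs, that of miR-22* being added to the 4 above. The difference between miR-22* and miR-22 had an SD of 0.24 without that array, against 0.41 with it. miR-22 read 10.7, 9.61 and 9.25 (day 0), 9.73 and 9.64 (day 1) and 10.4, 10.5 and 10.4 (day 6); only the noisy day 0 replicate 1 overlapped the day 6 arrays. Its log2 fold was 0.64 ± 0.32 (SE; adjusted p = 0.471), against 0.51 for miR-22*, and the difference was -0.13 ± 0.33 (SE; adjusted p = 0.967). Values of miR-138 gave a log2 fold of 0.91 ± 0.86 (SE; adjusted p = 0.775), from 4.20 to 7.64 in level, against 0.15 for miR-138*, the largest gap of a same-name pair at -0.76 ± 0.73 (SE; adjusted p = 0.929). As miR-138* was at the floor on 4 arrays, the size of this gap depends on the floor. The SD of the difference was largest for miR-135a*, at 1.27, where miR-135a ranged from 5.15 to 7.88 and miR-135a* from 4.70 to 6.67. For miR-30a* and miR-30e* the difference varied more than the star strand alone, with SDs of 0.39 and 0.55, against 0.33 and 0.36 for the star strands. let-7a varied little over the arrays, with an SD of 0.17, against 0.88 for let-7a*, or 0.36 without day 0 replicate 1.

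For 4 star strands the partner carried another form of the name. miR-199b* had a log2 fold of 0.48, against 0.80 ± 0.51 (SE; adjusted p = 0.584) for miR-199a-3p, whose probes also read the 3p strand of miR-199b. miR-199a-3p read 6.71, 5.89 and 5.72 (day 0), 6.26 and 6.07 (day 1) and 7.30, 7.86 and 5.66 (day 6), so both were high on day 6 replicates 1 and 2 and low on replicate 3. In bulk cultures fewer cells of a type and less RNA per cell cannot be told apart. The summed level of the fibroblast and mural markers, which include miR-199a-3p, ran from 105.8 to 367 on day 6 arrays and from 108 to 160 on immature arrays (linear scaled intensity); 3 of these 4 markers were detected, miR-145 on no array, and their part in the values of miR-199b* was not tested. miR-181a had a log2 fold of -0.23 ± 0.43 (SE; adjusted p = 0.871), against -0.11 for miR-181a-1*. In RefSeq miR-181a is encoded at 2 loci and miR-181a-1* at 1, so miR-181a can also come from another transcript.

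**Figure D4:**
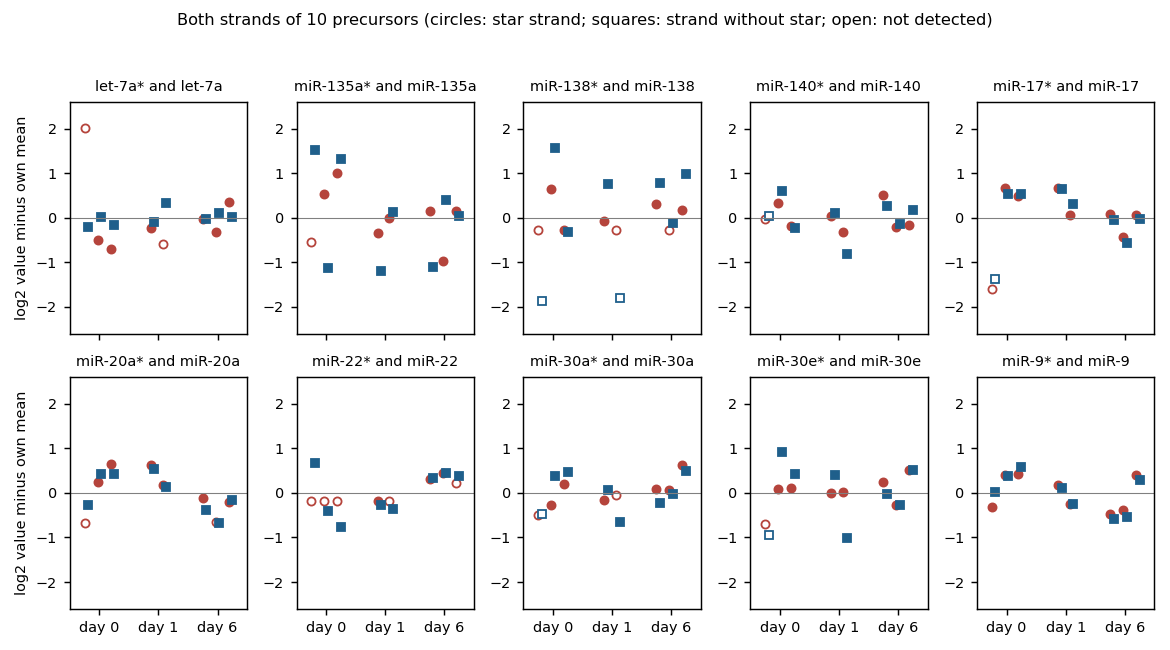
Log2 value of each strand minus its own mean over the 8 arrays (vertical axis) by day (horizontal axis), for 10 pairs of star strand (circles) and strand of the same name without the star (squares); open points were not detected. Circles and squares move together for miR-9*, miR-17* and miR-20a*, where the SD of the difference is 0.16, 0.16 and 0.22, and apart for miR-135a*, where it is 1.27.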

How the data were processed

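Total RNA of 8 cultures was labelled with Cy3 and hybridised to Agilent miRNA arrays, 1 sample per array. The deposited intensities were made with Agilent Feature Extraction 9.5, are background-subtracted and, per the file headers, carry no scaling between arrays; the deposited value table repeats them. Spot outliers were dropped and probes averaged over their spots. Detection needed a share of 0.5 or more of a probe's spots to be well above background, for any probe of the miRNA. Arrays were scaled to their 75th percentile over 91 probes detected on all arrays, a floor was set at the 5th percentile of detected intensities (18.4, log2 4.20), and log2 of the brightest probe was used. Values at the floor have no order, and folds against them depend on it. limma 3.58 in R 4.3 estimated 1 mean for each day in the 199 mouse miRNAs detected on at least 3 arrays, with two-sided tests and Benjamini-Hochberg adjustment over all 199; for the 18 strand pairs it was fitted to the per-array difference and adjusted over 18. The contrasts were day 6 against the mean of the day 0 and day 1 means, and each pair of days. The fit was tried on simulated data with normal noise of equal spread, without a floor, undetected values or a noisy array. The simulated shift was larger than any star fold given here. It therefore does not show how often changes of their size would be found. Every tested star strand is named; per-array values are given for those on at least 6 arrays and those with the largest folds. The members, lists and tests were chosen with earlier results of these data known. The alternatives concerned scaling, background, probe summary, floor, filter, flags, moderation, weights, blocks, arrays in the fit and arrays left out; partners of other name forms and the count of separate groups without day 0 replicate 1 were chosen after seeing the data. The few arrays limit precision. Sequences and positions are from RefSeq, GRCm38.p6; host genes are those whose span holds the hairpin, with strand not considered.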

Additional observations from a re-analysis of the deposited data

Results flagged for a closer look

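Among the 5 immature arrays, 1 array lay far from the other 4 for 5 of the 15 star strands. The rule marks about 1 in 20 groups of independent, normally spread values. Here days 0 and 1 are pooled, some values sit at the floor and the strands share arrays. The count can therefore not be read against that rate. let-7a* was at 7.22 on day 0 replicate 1, not detected there, with 4.97 the nearest other value. miR-17* was at 4.20 and miR-30e* at 4.77 on the same array, neither detected, with 5.85 and 5.46 the nearest. miR-138* was at 5.10 and miR-24-1* at 4.93 on day 0 replicate 2, both detected there, with 4.39 and 4.35 the nearest.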

How the results depend on the processing

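Star strands were called under few of the alternatives. miR-22* was called in mature against immature cells and in day 6 against day 0 when arrays were scaled to bright control probes (1 star strand in each; adjusted p = 0.0418 and 0.0411) and when detection on 1 array sufficed (1 in each; adjusted p = 0.0487 and 0.0355), and with no detection filter in day 6 against day 0 (1; adjusted p = 0.0358). Its adjusted p for mature against immature cells ran from 0.0418 to 1 over 23 alternatives. miR-22* was detected on no day 0 array, so its calls against day 0 rest on the floor. The pairs of strands gave 0 calls in every alternative run, with partners of other name forms added too. Star strands tested numbered 1 with detection required on all arrays, 24 with detection on 1 array, 115 with no filter and 53 with the flag for positive and significant spots. The count of separate star strands was 4 in place of 3 without day 0 replicate 1.

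Counts of called miRNAs in mature against immature cells, 4 as reported, were 0 with scaling over all probes, no scaling, normexp, the mean of all probes, detection on all arrays, no filter and the slide row as a block, 2 with the positive and significant flag, 8 with control scaling and 10 with array weights. For day 6 against day 0, 8 as reported, they were 1 with scaling over all probes, no scaling, the mean of all probes, detection on all arrays and the slide row, 2 with normexp, 3 with the flag, 4 with the floor doubled, no filter and only the arrays compared, 5 with robust moderation and 16 with control scaling. For day 6 against day 1, 0 as reported, they were 3 with control scaling and with the floor doubled, 1 with detection on all arrays, 2 with detection on 1 array and 9 with array weights; for day 1 against day 0, 3 as reported, 1 with detection on all arrays. Leaving out each array in turn gave 0 to 5 calls in mature against immature cells (0 without day 6 replicate 1 or 2, 5 without day 0 replicate 1) and 1 to 7 in day 6 against day 0 (7 without day 0 replicate 1), with 0 star strands called each time.

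The median log2 fold of star strands for mature against immature cells was -0.25 with no scaling and 0.59 with control scaling, where the median of all miRNAs was -0.28 and 0.51. For day 6 against day 0 it was -0.48, 0.48, -0.32 with detection on all arrays (miR-9* alone) and -0.31 with the flag; all miRNAs had -0.44, 0.46, -0.021 and 0.034 under these settings. It was 0.70 with control scaling for day 6 against day 1, where all miRNAs had 0.56. For day 1 against day 0 it was 0.17 with scaling over all probes, where all miRNAs had 0.38, and -0.57 with the flag, where all miRNAs had -0.093.

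The log2 fold of mature over immature cells changed sign, without a call, for these star strands. With scaling over all probes it was -0.0071 for miR-138* and -0.0097 for miR-24-1*, and with quantile normalization -0.11 and -0.057. With no scaling it was -0.28 for let-7a*, -0.19 for miR-138*, -0.25 for miR-140*, -0.15 for miR-24-1* and -0.092 for miR-30e*. With control scaling it was 0.21 for miR-135a*, 0.29 for miR-17*, 0.41 for miR-181a-1* and 0.30 for miR-9*. With normexp it was 0.017 for miR-181a-1* and 0.0015 for miR-20a*; with array weights and the slide row, 0.13 and 0.0030 for miR-181a-1*. The mean of all probes gave -0.30 for let-7a* and 0.025 for miR-135a*, their sum -0.022 and 0.28, the doubled floor -0.22 for let-7a* and the flag 0.086 for miR-17*. Leaving out each array gave -0.17 to 0.61 for let-7a*, -0.49 to 0.067 for miR-135a*, -0.14 to 0.22 for miR-140*, -0.33 to 0.28 for miR-181a-1* and -0.0059 to 1.10 for miR-199b*.

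Whether replicate numbers pair the samples is not stated. Same-numbered arrays of different days correlated at -0.71 to 0.32 in their deviations from the day means, with 3 of 7 over 0.1. Arrays of different numbers correlated at -0.31 to 0.71, with 7 of 14 over 0.1. The deviations of the 2 day 1 arrays mirror each other, so these correlations cannot decide whether samples are paired. With the replicate block, 0 miRNAs were called in mature against immature cells and 1 in day 6 against day 0, and 0 star strands. The causes of these changes were not tested, beyond the smaller or larger number of miRNAs that the filters leave. Detection limits the rest: star values on day 0 replicate 1 mostly lie below its limit.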
